A study of Mus musculus with 39 samples.

Results

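The replication-dependent histone genes of the mouse genome were followed through preimplantation development and after inhibition of histone deacetylases at the pronuclear stage. The members were all array probes whose gene name began with Hist1h, Hist2h, Hist3h or Hist4h, which gave 55 probes of 49 named genes among the 55681 probes and 34797 gene names of the array. They comprised 6 probes of linker histone H1, 15 of H2A, 12 of H2B, 8 of H3 and 14 of H4. By cluster, 40 probes belonged to the Hist1 genes, 10 to the Hist2 genes, 3 to the Hist3 genes and 2 to the Hist4 gene. The rule used names only and no measured value.

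RNA from 100 mouse oocytes or embryos was hybridised to each of 39 single-colour arrays, with 3 arrays in each of 13 conditions. The labels give the strain as B6D2F1 x ICR: oocytes from B6D2F1 females aged 8 to 9 weeks were fertilised in vitro with sperm of ICR males aged 15 to 20 weeks. The 8 control conditions were GV oocytes, MII oocytes, and untreated 1-cell, 2-cell, 4-cell and 8-cell embryos, morulae and blastocysts. Embryos were exposed for 6 h from 4 h after insemination to 10 µM T247, an inhibitor of the deacetylase HDAC3, or to 10 µM MGCD0103, an inhibitor of class I deacetylases, and were collected at 12, 24 and 48 h as 1-cell, 2-cell and 4-cell embryos. T247 embryos were measured at these 3 stages, MGCD0103 embryos at the first 2. Embryos were pooled, so that a value is a mean over embryos, and a smaller share of embryos with a transcript and less RNA per embryo cannot be told apart. Slides 1 to 3 carried controls alone, slides 4 and 5 T247 embryos and slide 6 MGCD0103 embryos. Treatment and slide therefore cannot be told apart in any comparison with control or between the inhibitors.

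Replication-dependent histones package newly made DNA, and their genes lie in clusters, with several near-identical copies of each core histone H2A, H2B, H3 and H4 and a smaller set of linker histones H1 that bind where DNA enters and leaves the nucleosome. Their messengers are transcribed mainly in S phase and end in a conserved stem-loop in place of a poly(A) tail. Oocytes are known to store histone messengers, which the early embryo uses through its first cleavages. The labelling kit primes from poly(A) by its usual design, which for these messengers favours polyadenylated forms, and the signals below may differ from the total amount of each messenger in a way that was not measured.

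The sequences show how alike some of the probes are. Each probe is 60 bases long. A set of 6 H2A probes ends exactly at the stop codon, printed in capitals, and is shown because these probes moved together in treated embryos. They lie on chromosome 13 (Hist1h2af at chr13:23626113-23626172 on the plus strand, Hist1h2ah at chr13:22127035-22127094, Hist1h2ak at chr13:21845304-21845363 and Hist1h2an at chr13:21878695-21878754, each on the minus strand) and on chromosome 3 (Hist2h2aa2 at chr3:96049837-96049896 on the plus strand and Hist2h2ac at chr3:96024378-96024437 on the minus strand), in coordinates of mm9 as the array design gives them.
Hist1h2af: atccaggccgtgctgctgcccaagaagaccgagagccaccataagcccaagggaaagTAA
Hist1h2ah: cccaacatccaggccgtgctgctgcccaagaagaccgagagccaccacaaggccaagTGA
Hist1h2ak probe 333: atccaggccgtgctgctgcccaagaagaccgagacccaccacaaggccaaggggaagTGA
Hist1h2an: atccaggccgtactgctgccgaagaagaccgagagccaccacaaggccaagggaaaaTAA
Hist2h2aa2: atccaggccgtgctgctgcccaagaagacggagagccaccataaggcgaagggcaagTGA
Hist2h2ac: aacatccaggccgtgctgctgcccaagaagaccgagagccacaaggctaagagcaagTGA
Counted without gaps, the first 5 of these differ from each other at 3 to 8 bases, and Hist2h2ac differs from them at 13 to 17. That count overstates the distance of Hist2h2ac, which lacks a codon near its end and shares a long unbroken run of bases with Hist1h2ah. Over the whole membership, 13 pairs of probes differed at 10 bases or fewer in the same count without gaps, which leaves out Hist2h2ac. They were 10 H2A pairs and 3 H4 pairs among Hist1h4c, Hist1h4d and Hist1h4k probe 36. Signal from one copy may therefore reach the probe of another, and the probes of such a set are not independent of each other. Probes were not compared with the transcripts of other copies, so a probe outside these pairs may also read more than its own gene. Where a gene has several probes, a probe is named by the position of its first base in the transcript.

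A second set of probes reads across the stem-loop itself. The pattern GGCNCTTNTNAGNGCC, searched on the printed strand, was held by 6 of the 55681 array probes, and all 6 were members. A further 2 members, Hist1h2ab and Hist1h2ae, hold part of it at an edge. The stem-loop, in capitals, is printed with the bases beside it because 5 of these 6 probes are among the 8 members whose difference from control moved higher between 2-cell and 4-cell T247 embryos.
Hist2h2aa1: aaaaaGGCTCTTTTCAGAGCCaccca
Hist2h2bb: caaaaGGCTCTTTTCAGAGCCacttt
Hist1h3a: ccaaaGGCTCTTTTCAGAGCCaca
Hist1h3g: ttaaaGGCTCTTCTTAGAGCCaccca
Hist1h3i: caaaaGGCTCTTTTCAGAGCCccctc
Hist1h4m: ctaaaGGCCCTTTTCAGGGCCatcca
Of the other members, 14 begin more than 500 bases (1000 for H1) into the transcript and are called late probes here, and 33 begin earlier and are called body probes. This grouping goes by position alone and does not mark the end of the coding sequence: Hist1h4i probe 483, a body probe, lies close beside the late Hist1h4i probe 574. The grouping was chosen after the values had been seen and is used as a description.

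All values are log2 signals after smooth quantile normalization, each probe being compared with itself across conditions. A probe was tested where it was detected on at least 1 of 3 arrays of both groups, and it is called changed where the limma estimate was at least 1 in size (2-fold) with a Benjamini-Hochberg adjusted p under 0.05 over all tested probes of the array. "Well above background" is the scanner software's own mark. Of the 55 probes, 46 were detected in all 13 conditions, 35 were well above background on all arrays of all 13 conditions, and the pseudogene probe Hist3h2bb-ps was so on none. Between 39 members (1-cell control) and 46 members (morula and blastocyst), or 70.9% to 83.6%, were well above background on all 3 arrays of a condition, against 41.4% to 51.3% of all probes.

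Of marker genes for oocytes, 8 of 8 were well above background from GV to the 2-cell stage, and their summed signal was 1404000 to 1449000 in GV oocytes and 642 to 774 in blastocysts, where 8 of 8 blastocyst markers were well above background. Markers of cumulus and granulosa cells were well above background for 3 to 8 of 10 genes, and their summed signal was 17660 to 20130 in 2-cell controls, 9600 to 9908 after T247 and 12580 to 13320 after MGCD0103. In 4-cell controls it was 36130 to 40950, although 7 of the 10 genes were well above background on no array. The sum thus rested on few genes and is no direct measure of such cells. The part of such cells in the results was not tested. No spot was saturated on any array. The first 2-cell control array stood apart from the other two: it was the lowest of the 3 for 44 of 55 members, with a median member 0.68 below their mean, and its mean correlation with them over all probes was 0.9582. The total member counts of each comparison with 2-cell controls are therefore also given without it, as are several of the values it moves. The counts and values of the gene lists and of the interactions are given with all arrays only.

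Over the control stages the members followed several courses rather than one. The highest mean stood at GV or MII for 13 of 55 probes, at the 1-cell or 2-cell stage for 7, and at the 8-cell, morula or blastocyst stage for 35. This count takes in every probe, also Hist1h1d, not detected on any control array, and Hist3h2bb-ps, well above background on none. Hist2h2be counts at the 8-cell stage through a single array, as given below. The distance between the highest and lowest control mean ran, among the members detected on control arrays, from 0.73 for Hist1h3d to 8.56 for Hist1h1b, 8.65 for Hist1h2ab and 8.73 for Hist1h2bc, on the log2 scale. These are descriptions of the same means that the stage comparisons below test.

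**Figure D1:**
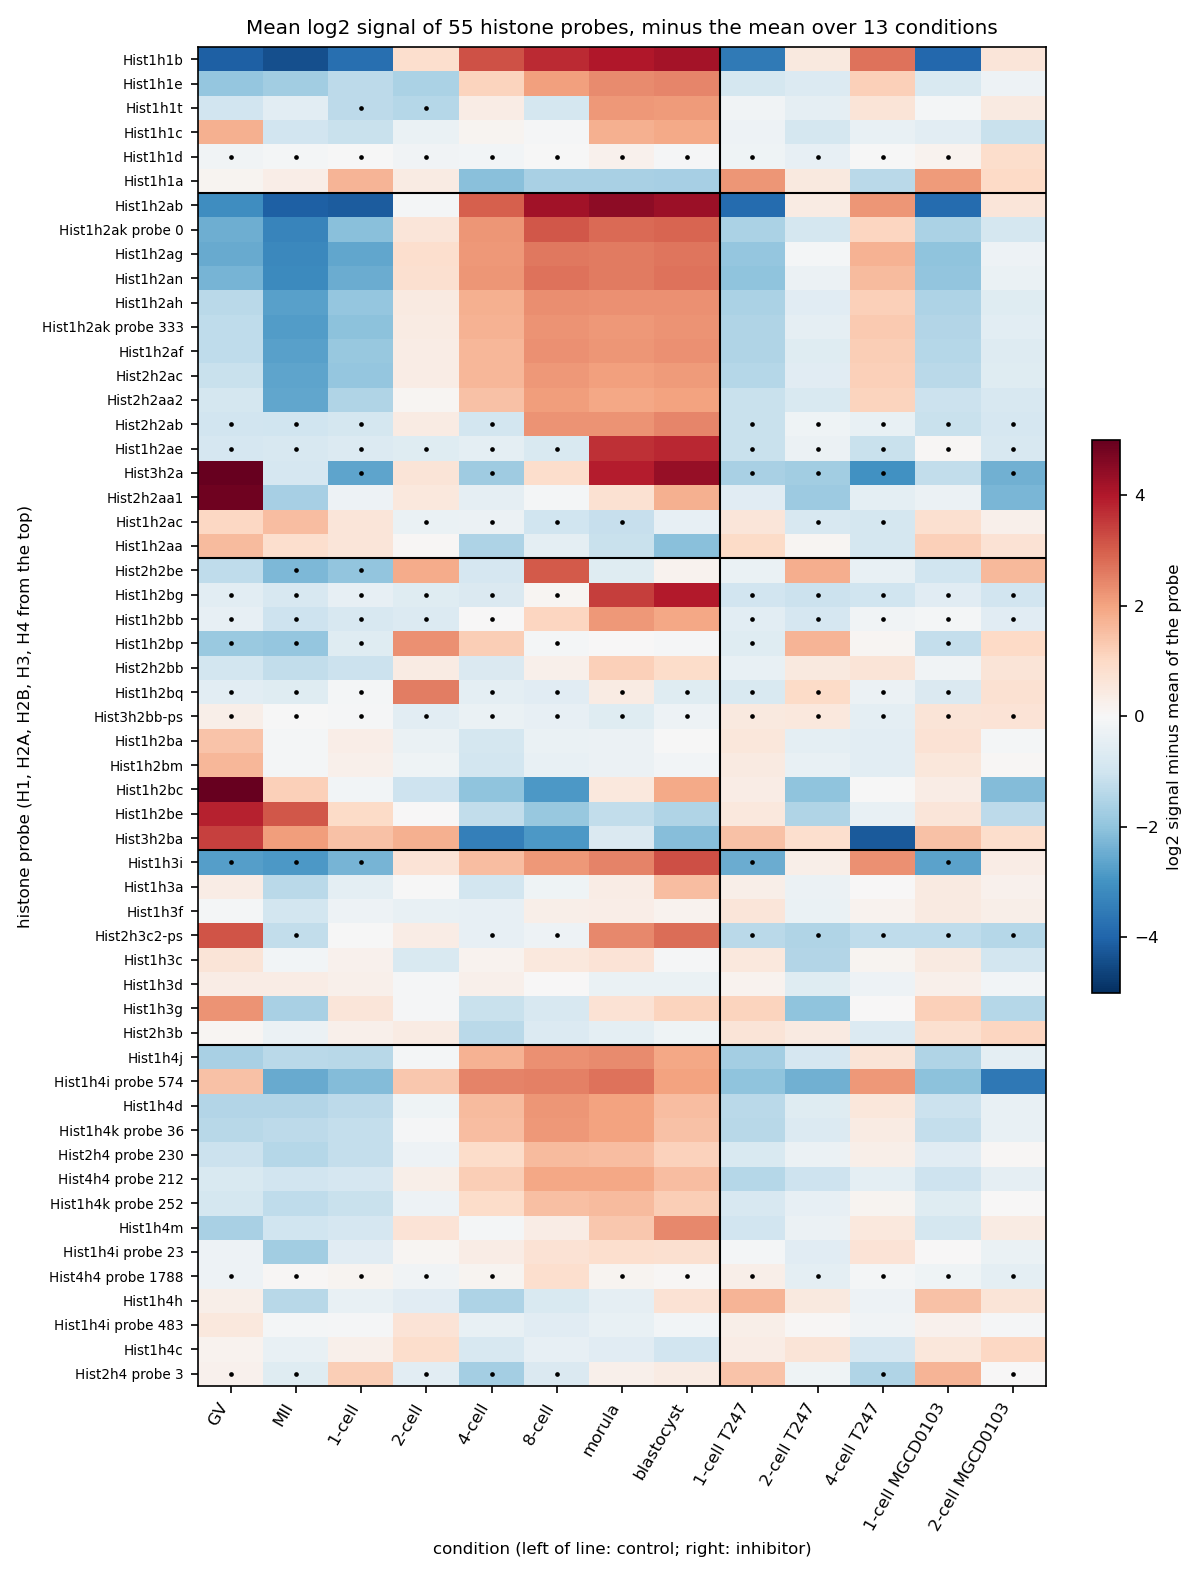
Mean log2 signal of each of the 55 histone probes in each of the 13 conditions (3 arrays each), minus the probe's mean over the 13 conditions, shown as colour. Black dots mark conditions in which no array was well above background; Hist1h1b and Hist1h2ab rise from the 2-cell stage on, whereas Hist1h2bc is highest in GV oocytes.

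From GV to MII oocytes, 17 of 48 tested members fell and 0 rose, where 37% of all tested probes were called, 36.3% lower and 0.696% higher. The member median was -0.78 against -0.61 over all probes. The direction of this count follows the scaling: with each array scaled to its 75th percentile, 12 members were called higher and 6 lower and the median of all probes was 0.68, and with ordinary quantile normalization 13 were higher and 6 lower with a median of all probes of 0.23. With the differences centred on the median of all probes, 3 were higher and 10 lower. Of the 17 that fell, Hist3h2ba changed sign under another scaling and the other 16 did not.

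From MII to the 1-cell stage, 9 of 49 members rose and 2 fell (background 17.7% called, 14% higher and 3.67% lower), with a member median of 0.35 against 0.15. This split too moved with the scaling, to 2 higher and 5 lower at the 75th percentile, to 5 and 5 with quantile normalization and to 7 and 3 when centred. From the 1-cell to the 2-cell stage, 22 of 52 members rose and 2 fell, where 43.1% of all probes were called, 16.3% higher and 26.8% lower. The median member stood at 0.76 and the median probe at -0.33, and without the first 2-cell control array the counts were 28 and 3.

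From the 2-cell to the 4-cell stage, 17 of 51 members rose and 12 fell (background 50.4% called, 21.8% higher and 28.7% lower), and without the first 2-cell array 10 rose and 17 fell, so that this balance rests on that array. At the 75th percentile 21 rose and 7 fell. Of 31 tested body probes, 16 rose and 5 fell, of 12 tested late probes 0 rose and 5 fell, and of 8 stem-loop probes 1 rose and 2 fell. Without the first 2-cell array 9 body probes rose and 6 fell, 0 late probes rose and 7 fell, and 1 stem-loop probe rose and 4 fell.

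Later steps moved fewer members. Against the 4-cell stage, 4 of 49 members rose and 2 fell at the 8-cell stage (background 12.7% called, 7.03% higher and 5.69% lower), with a member median of 0.55 against 0.12 over all probes and a split of 2 to 2 with quantile normalization. Against the 8-cell stage, 8 of 51 rose and 1 fell in morulae (background 29.8%, 23.9% higher and 5.96% lower), and 6 of the 8 were late probes. The split was 7 to 3 at the 75th percentile and 7 to 2 with quantile normalization. Between morula and blastocyst, 4 of 52 rose and 1 fell (background 22.6%, 16.1% higher and 6.54% lower), but at the 75th percentile 0 rose and 3 fell and with quantile normalization 0 rose and 2 fell. The split was 3 to 2 when centred and 4 to 0 with no scaling.

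The linker histones ran on opposite courses. Hist1h1a encodes a somatic linker histone and its probe lies in the coding sequence at chr13:23855888-23855947 (mm9, plus strand). Hist1h1b encodes another, with its probe at chr13:21871923-21871982 (minus strand). Both probes are printed because their courses separate them.
Hist1h1a: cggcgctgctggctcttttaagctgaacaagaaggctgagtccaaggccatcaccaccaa
Hist1h1b: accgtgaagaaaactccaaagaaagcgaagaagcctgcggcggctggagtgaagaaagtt
Hist1h1a read 12.15, 12.39 and 12.29 in GV oocytes and 12.28, 12.73 and 12.46 in MII oocytes, reached 13.88, 13.88 and 13.86 at the 1-cell stage, then read 12.39, 12.68 and 12.59 in 2-cell and 10.12, 10.22 and 9.85 in 4-cell embryos. The 1-cell arrays were the highest of all control arrays for this probe, with no overlap with either neighbour. It rose by 1.38 ± 0.18 (SE, 3 arrays a group) from MII to the 1-cell stage (adjusted p = 2.33e-07) and then fell by 1.32 and 2.49 on the log2 scale in the next 2 steps (adjusted p = 1.91e-07 and 2.12e-13).

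Hist1h1b read 5.96, 5.97 and 6.05 in 1-cell embryos, 10.05, 11.01 and 10.73 in 2-cell embryos, 12.78, 13.26 and 12.74 in 4-cell embryos and 14.24, 14.36 and 13.10 in blastocysts. The groups did not overlap up to the 4-cell stage. The first rise, between 1-cell and 2-cell embryos, was 4.60 ± 0.37, or 24.3-fold (adjusted p = 7.51e-12), and that to the 4-cell stage 2.33 ± 0.37 (adjusted p = 2.62e-06).

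Hist1h1e, a somatic linker histone gene, kept between 8.31 and 9.14 on all control arrays up to the 2-cell stage and read 11.47, 11.61 and 11.26 at the 4-cell stage, a rise of 2.72 ± 0.24 (adjusted p = 3.92e-11). Hist1h1c, another somatic linker gene read by a late probe, fell from 8.01, 8.13 and 8.02 in GV oocytes to 5.56, 4.91 and 5.43 in MII oocytes (-2.75 ± 0.32, adjusted p = 8.65e-09). It rose again from 6.44, 5.64 and 6.53 at the 8-cell stage to 7.87, 8.77 and 7.44 in morulae (1.83 ± 0.32, adjusted p = 1.58e-05). The GV arrays lay within the range of the morula arrays.

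Hist1h1t, the testis-specific linker histone, was not well above background on any 1-cell or 2-cell control array. It read 5.88, 5.73 and 5.60 at the 4-cell stage, at least 3.32-fold above the 2-cell stage (adjusted p = 3.84e-06), then 4.86, 4.86 and 3.75 at the 8-cell stage (-1.24 ± 0.30, adjusted p = 0.00176) and 7.23, 7.58 and 7.71 in morulae (3.01 ± 0.30, adjusted p = 8.7e-10). Hist1h1d was not detected on any control array, and on 1 of 3 MGCD0103 2-cell arrays it was well above background (1.93, 5.32 and 1.91), so that it was not tested.

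**Figure D2:**
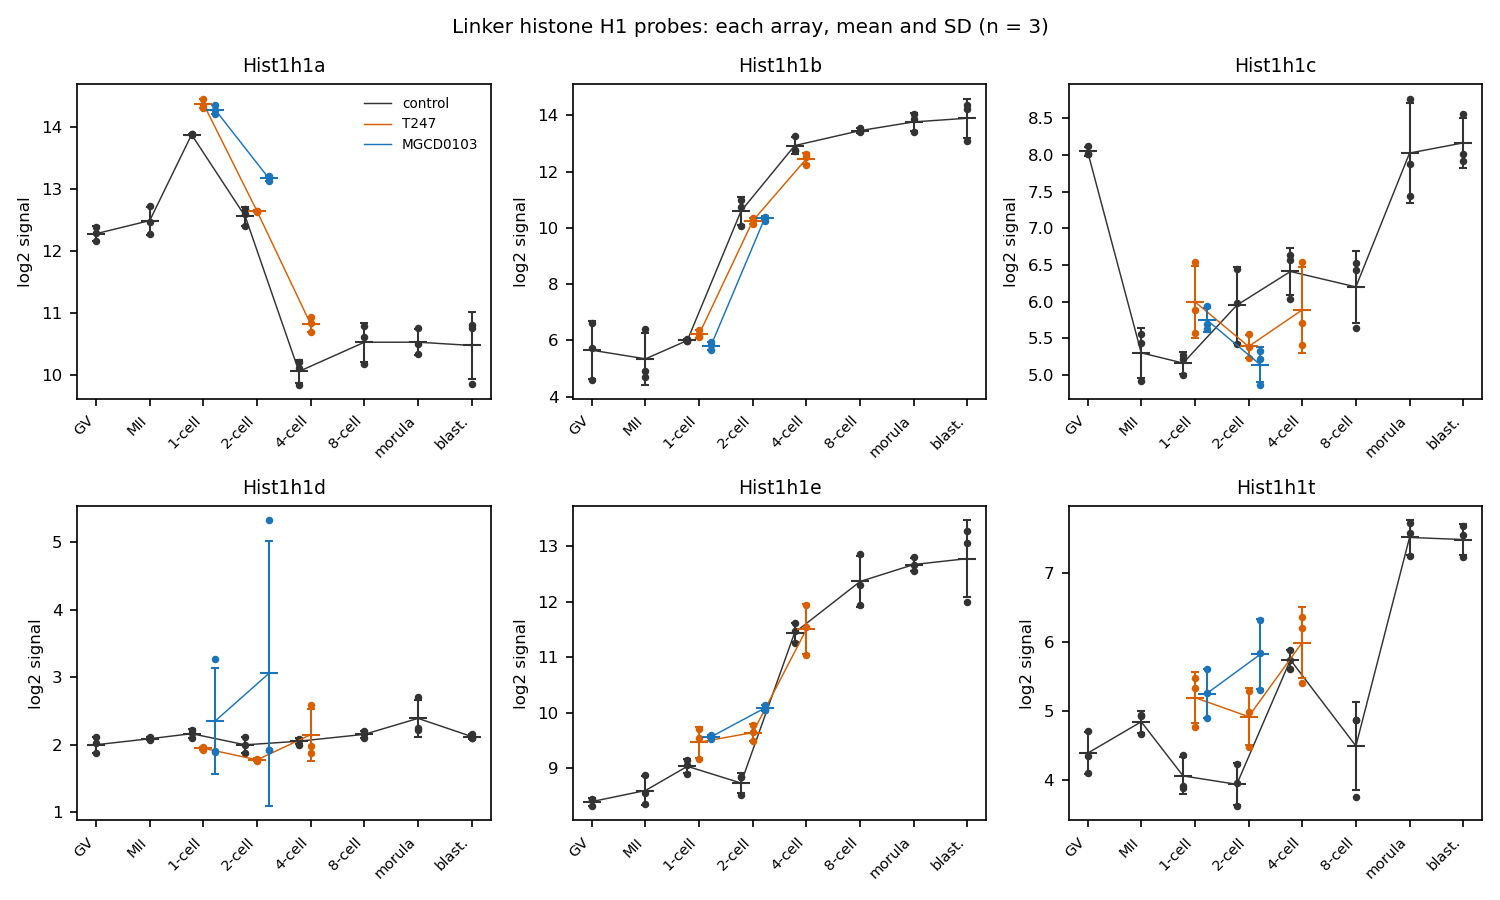
Log2 signal of the 6 linker histone probes on each array, by stage and treatment, with the mean and SD of 3 arrays. Hist1h1a peaks at the 1-cell stage (13.88, 13.88 and 13.86), whereas Hist1h1b climbs from 5.96 to 6.05 in 1-cell embryos to 12.74 or more from the 4-cell stage on.

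Among the H2A probes, 10 of 13 tested rose and 0 fell between 1-cell and 2-cell embryos, with a median of 2.39 against -0.33 over all probes. Hist1h2ab, a core H2A gene read next to its stem-loop, went from 6.47, 6.41 and 6.27 to 10.08, 10.70 and 10.55 and then to 13.80, 13.59 and 13.17 at the 4-cell stage. Its steps were 4.06 ± 0.35 (adjusted p = 2.5e-11) and 3.08 ± 0.35 (adjusted p = 4.8e-09), with no overlap between stages, and it rose by a further 1.20 ± 0.35 at the 8-cell stage (adjusted p = 0.00914). The 6 probes that end at the stop codon rose at both steps, with medians of 2.35 and 1.34, although without the first 2-cell array only 1 of the 6 was called at the second step, with a median of 0.98.

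Hist1h2an, one of those 6, read 12.20, 12.31 and 12.26 in 1-cell embryos, 14.88, 15.95 and 15.83 in 2-cell embryos and 17.01, 17.04 and 16.73 in 4-cell embryos. It stayed between 17.16 and 17.59 on every array from the 8-cell stage to the blastocyst. Hist1h2aa, a germ-line H2A gene, read 9.95 to 10.10 in 1-cell embryos and 9.21, 9.54 and 9.57 in 2-cell embryos, a difference that was not called (-0.57, adjusted p = 0.0263; without the first 2-cell array -0.34, adjusted p = 0.233). It then fell to 8.19, 7.94 and 7.43 in 4-cell embryos (-1.59 ± 0.22, adjusted p = 1.86e-07). It rose by 1.03 ± 0.22 at the 8-cell stage (adjusted p = 0.000534).

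Another pair of H2A probes was high in GV oocytes and low in MII oocytes. Hist2h2aa1, whose probe holds the stem-loop, read 11.63, 11.63 and 11.70 and then at most 5.23 on each MII array, a difference of -6.50 ± 0.43 or 90.6-fold (adjusted p = 3.16e-14). This fall is that of the probe. By the array coordinates the Hist2h2aa2 probe ends just before it on the same strand. The 6 probes ending at the stop codon, Hist2h2aa2 among them, changed by -1.74 to -0.86 in this step. They may also read other copies, and whether the whole locus fell was not tested. Hist3h2a, read by a late probe, went from 10.23, 10.29 and 10.36 to 5.01, 3.75 and 3.28 (-6.28 ± 0.79, adjusted p = 5.24e-08), with 1 of 3 MII arrays well above background. Hist3h2a returned later, at least 3.1-fold higher at the 8-cell than at the 4-cell stage (adjusted p = 0.0107) and 3.03 higher in morulae (adjusted p = 0.00202).

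The H2B probes split by stage. Hist1h2bc, an H2B gene read by a late probe, was at 14.83, 14.91 and 14.98 in GV oocytes and at 10.76, 9.92 and 10.09 in MII oocytes. It reached 6.07, 5.60 and 6.87 at the 8-cell stage before it rose to 9.18, 10.42 and 9.07 in morulae (3.38 ± 0.41, adjusted p = 4.89e-08). Hist1h2bg, also an H2B gene with a late probe, was not well above background at the 8-cell stage and read 5.64, 6.79 and 6.08 in morulae, at least 3.92-fold higher (adjusted p = 8.21e-11).

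Hist1h2be, an H2B gene with a late probe, fell from 11.65, 11.54 and 11.60 in MII oocytes to 9.11, 9.75 and 9.47 in 1-cell embryos (-2.15 ± 0.26, adjusted p = 8.43e-08), and Hist1h2bc fell in the same step by 1.34 on the log2 scale (adjusted p = 0.0115). Hist3h2ba, an H2B gene of the Hist3 group, fell from 9.47, 10.02 and 9.84 at the 2-cell stage to 4.85, 4.88 and 3.99 at the 4-cell stage (-5.20 ± 0.54, adjusted p = 7.8e-10). Hist1h2bq fell there too, from 3.23, 6.26 and 5.97 to 2.33, 1.90 and 2.01, at least 2.04-fold (adjusted p = 5.85e-06).

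Hist1h2ba, the germ-line H2B, read 12.60, 12.72 and 12.76 in GV oocytes and 11.04, 11.29 and 11.19 in MII oocytes (-1.52 ± 0.17, adjusted p = 9.54e-09), and no later step was called. Hist2h2be, an H2B gene with a late probe, was called at the 8-cell and morula steps through a single array: it read 4.61, 14.90 and 4.55 at the 8-cell stage against 4.03, 4.49 and 3.81 at the 4-cell stage. Without the second 8-cell array the differences were 0.47 (adjusted p = 0.365) and -0.23 (adjusted p = 0.627). Hist1h2bp, an H2B gene with a late probe, was at least 2.09-fold lower at the 8-cell than at the 4-cell stage (adjusted p = 0.00545).

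H3 had few called probes, 1 of 8 tested from the 1-cell to the 2-cell stage and 2 of 8 in the next step. H4 had 7 of 14 and 7 of 13 in these steps. Hist1h3g, an H3 gene whose probe holds the stem-loop, rose from 6.54, 6.19 and 6.28 in MII oocytes to 8.93, 8.23 and 8.51 in 1-cell embryos (2.22 ± 0.31, adjusted p = 8.13e-07). Hist2h4 probe 3, an H4 probe, was at least 1.64-fold higher at the 1-cell stage than in MII oocytes (adjusted p = 0.00299) and at least 1.74-fold higher than at the 2-cell stage (adjusted p = 0.00228). Among H4 probes, 6 rose and 1 fell between 1-cell and 2-cell embryos, and 5 rose and 2 fell in the next step. Without the first 2-cell array these counts were 10 and 1, then 3 and 3, and without the second they were 3 and 1, then 7 and 1.

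Probes of 1 gene did not always run together. Hist2h4 probe 3 fell in the step to the 2-cell stage, while Hist2h4 probe 230 went from 12.78, 13.14 and 13.02 to 13.36, 14.19 and 14.16, with no overlap (0.93 ± 0.26, adjusted p = 0.00296, not called). Hist4h4 probe 212 rose there by 1.13 ± 0.25 (adjusted p = 0.000297), and Hist4h4 probe 1788 was not well above background in either stage. Between 2-cell and 4-cell embryos Hist1h4i probe 483 went from 9.53, 10.66 and 10.81 to 9.35, 9.45 and 9.06 (-1.05 ± 0.21, adjusted p = 5.04e-05), while Hist1h4i probe 574, a late probe, went from 6.86, 10.73 and 10.73 to 10.81, 11.02 and 9.77, a difference that was not called (adjusted p = 0.0861). Without the first 2-cell array the second difference was -0.29 (adjusted p = 0.426) and the first -1.55 (adjusted p = 5.06e-10). In blastocysts Hist1h4h, an H4 gene, read 7.16, 6.80 and 6.90 against 5.38, 5.76 and 6.19 in morulae (1.18 ± 0.20, adjusted p = 1.54e-05), and the H3 gene Hist1h3a rose by 1.17 ± 0.33 (adjusted p = 0.00508). At the 75th percentile and with quantile normalization no member was called higher in this step.

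The comparisons of each inhibitor with control ask which histone messengers differ when deacetylases are blocked at the pronuclear stage. T247 and MGCD0103 embryos were compared with the same control arrays, so their differences share that source and are given side by side. At the 1-cell stage 2 of 49 tested members were called higher and 0 lower after T247, where 7.7% of all probes were called and 6.79% were called higher. After MGCD0103 the count was 2 of 51 higher and 0 lower, against 4.68% of all probes called and 4.02% called higher. The median member stood at 0.36 after T247 and 0.43 after MGCD0103, against 0.03 and 0.10 over all probes.

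Both probes called at the 1-cell stage were the same with either inhibitor. Hist1h4h read 5.66, 5.94 and 5.93 in controls, 7.89, 7.95 and 7.87 after T247 and 7.77, 7.81 and 7.49 after MGCD0103, and no treated array overlapped the controls. The differences were 2.06 ± 0.20, or 4.18-fold (adjusted p = 1.2e-08), and 1.85 ± 0.20 (adjusted p = 1.42e-07). Hist1h1t read 5.33, 4.77 and 5.47 after T247 and 4.89, 5.25 and 5.61 after MGCD0103 against controls that were not well above background, at least 1.83-fold higher (adjusted p = 0.00706) and at least 1.9-fold higher (adjusted p = 0.00731).

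The other linker histones passed no call at the 1-cell stage. Hist1h1a read 14.35, 14.45 and 14.31 after T247 and 14.26, 14.20 and 14.35 after MGCD0103, above all 3 control arrays, with differences of 0.50 (adjusted p = 0.0538) and 0.40 (adjusted p = 0.166). The differences after T247 and MGCD0103 were 0.22 and -0.19 for Hist1h1b (adjusted p = 0.775 and 0.84), 0.84 and 0.59 for Hist1h1c (adjusted p = 0.0687 and 0.274) and 0.43 and 0.53 for Hist1h1e (adjusted p = 0.261 and 0.185). Of the germ-line core genes, Hist1h2aa differed by 0.33 and 0.58 (adjusted p = 0.365 and 0.0883) and Hist1h2ba by 0.24 and 0.39 (adjusted p = 0.418 and 0.172). Members whose treated arrays all lay above the control arrays numbered 31 for each inhibitor (of 49 and 51 tested), where 24.9% of all probes did so after T247 and 28.1% after MGCD0103; 2 members after T247 and 1 after MGCD0103 lay wholly below (19.2% and 12.4% of all probes).

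**Figure D3:**
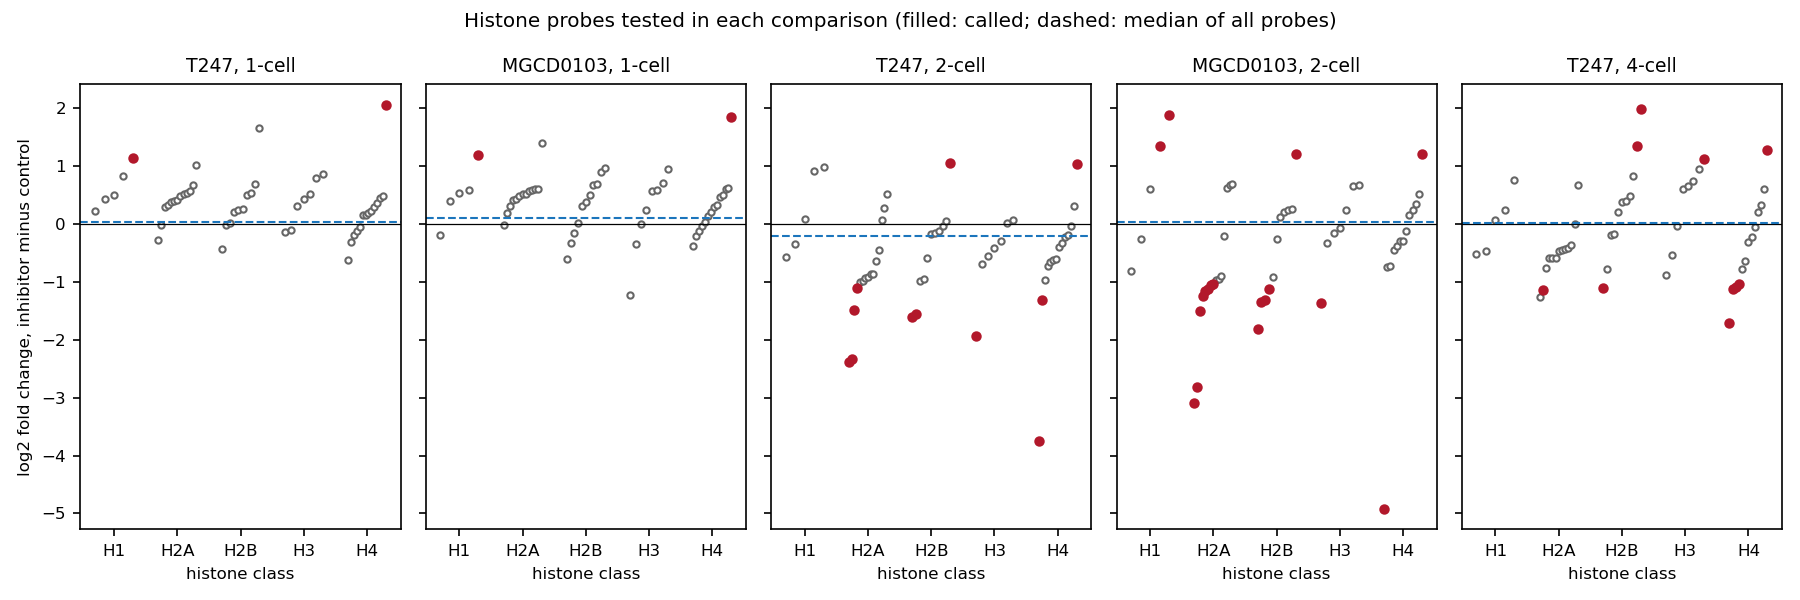
Log2 difference of each tested histone probe from control in the 5 inhibitor comparisons, by histone class; filled points were called and the dashed line is the median of all probes. The median H2A probe lies above the line in 1-cell embryos (0.41 after T247) and below it in 2-cell embryos (-0.92 after T247), and Hist1h4h is called higher in each comparison.

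At the 2-cell stage more members were called lower than higher with either inhibitor, while the share called in either direction after T247 was close to that of all probes. After T247, 9 of 52 members were called lower and 2 higher, where 22.7% of all probes were called, 13.6% lower and 9.04% higher. After MGCD0103, 14 of 51 were lower and 4 higher, where 25% of all probes were called, 13.2% lower and 11.8% higher. Member medians were -0.56 and -0.29, against -0.21 and 0.04 over all probes, and centred on the latter the T247 split was 8 lower and 4 higher. Without the first 2-cell control array, 22 were called lower and 1 higher after T247 and 19 lower and 3 higher after MGCD0103, and without the second one 6 lower and 2 higher after T247 and 5 lower and 3 higher after MGCD0103.

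By class, H2A held the most lower calls, with 4 of 15 after T247 and 8 after MGCD0103, none higher, and medians of -0.92 and -1.03. Without the first control array 11 were called lower with each inhibitor, and without the second 2 and 3. H2B had 2 lower and 1 higher after T247 and 4 lower and 1 higher after MGCD0103. H3 had 1 lower with each, and H4 had 2 lower and 1 higher after T247 and 1 lower and 1 higher after MGCD0103. With all arrays H1 had no lower call with either inhibitor, and 2 higher calls after MGCD0103. Without the first control array Hist1h1c was called lower after MGCD0103 (-1.24, adjusted p = 0.0032) and Hist1h1t higher after T247 (adjusted p = 0.011).

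The 6 H2A probes that end at the stop codon, printed above, moved as a block in both treatments. Hist1h2an read 14.88, 15.95 and 15.83 in controls, 14.60, 14.40 and 14.33 after T247 and 14.36, 14.39 and 14.44 after MGCD0103, so that the highest treated array lay below the lowest control. Its differences were -1.11 ± 0.18 (adjusted p = 6.49e-06) and -1.16 ± 0.18 (adjusted p = 3.42e-06). Over the 6 probes the differences ran from -1.11 to -0.86 after T247 and from -1.16 to -0.91 after MGCD0103, none overlapping its controls, where 29.2% and 22% of all probes lay wholly below control. Because of the fold limit, 1 and 3 of the 6 were called, although the adjusted p after T247 was at most 0.000115. Without the first control array all 6 were called with both inhibitors, with medians of -1.32 and -1.36, and without the second none was called with either.

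Hist1h2ak probe 0, which reads the start of that H2A transcript, read 12.21, 12.96 and 12.81 in controls, 11.33, 11.12 and 11.05 after T247 and 11.15, 11.17 and 11.17 after MGCD0103. The differences were -1.49 ± 0.18 (adjusted p = 9.04e-08) and -1.50 ± 0.18 (adjusted p = 8e-08). Both treatments lay clear of the controls, and without the first control array the differences were -1.77 and -1.78.

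Several of the steepest falls belonged to probes on which the first control array was already low. Hist1h4i probe 574 read 6.86, 10.73 and 10.73 in controls, 5.80, 5.72 and 5.54 after T247 and 4.72, 4.15 and 4.68 after MGCD0103 (-3.75 ± 0.55, adjusted p = 2.16e-06, and -4.92 ± 0.55, adjusted p = 2.03e-08). Hist2h2aa1 read 5.56, 8.12 and 8.33 in controls, 5.04, 4.54 and 5.41 after T247 and 4.23, 4.26 and 5.05 after MGCD0103 (-2.34 ± 0.43, adjusted p = 4.78e-05, and -2.82 ± 0.43, adjusted p = 3.34e-06). Hist1h3g read 6.67, 8.46 and 8.51 in controls, 5.81, 5.95 and 6.07 after T247 and 6.48, 6.49 and 6.59 after MGCD0103 (-1.94 ± 0.31, adjusted p = 6.66e-06, and -1.36 ± 0.31, adjusted p = 0.000652). In all 3 the treated arrays lay below every control, but the first control lay nearer to the treated arrays than to the other controls. Without it the differences after T247 were -5.14 for Hist1h4i probe 574, -3.36 for Hist2h2aa1 and -2.67 for Hist1h3g, and after MGCD0103 -6.30, -3.84 and -2.09.

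Hist3h2a and Hist1h2bq were called lower with both inhibitors although their arrays overlapped. Hist3h2a read 1.96, 7.44 and 7.17 in controls, and the control mean was at least 3.47-fold above the T247 arrays and at least 3.79-fold above the MGCD0103 arrays (adjusted p = 0.016 and 0.00222). For both genes the first control array was as low as the treated ones.

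The rises at the 2-cell stage were few. Hist1h4h read 5.63, 5.76 and 5.58 in controls, 6.69, 6.95 and 6.46 after T247 and 6.88, 6.96 and 6.74 after MGCD0103, differences of 1.04 ± 0.20 (adjusted p = 8.01e-05) and 1.21 ± 0.20 (adjusted p = 1.18e-05). Without the first control array the T247 difference was 0.85 (adjusted p = 0.00197) and no longer called. The pseudogene probe Hist3h2bb-ps was also called higher with both (adjusted p = 0.0406 and 0.0182), but it was not well above background on any array, so no fold is given. These 2 were the members called higher with both inhibitors at this stage, and without the first control array Hist3h2bb-ps lost both calls (adjusted p = 0.113 and 0.0585).

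Among linker histones, Hist1h1e read 8.51, 8.84 and 8.83 in 2-cell controls, 9.64, 9.78 and 9.49 after T247 and 10.14, 10.04 and 10.05 after MGCD0103. It was called after MGCD0103 (1.35 ± 0.24, adjusted p = 4.7e-05) and stood at 0.91 ± 0.24 after T247 (adjusted p = 0.00337), below the fold limit, with no overlap in either case. Hist1h1t was not well above background in controls. It read 5.29, 4.48 and 4.98 after T247, at least 1.88-fold above them (adjusted p = 0.0088, not called), and 6.31, 5.83 and 5.30 after MGCD0103, at least 3.51-fold above them (adjusted p = 6.55e-06).

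Hist1h1a differed by 0.08 after T247 (adjusted p = 0.75) and by 0.61 after MGCD0103 (adjusted p = 0.0063). Hist1h1b differed by -0.35 and -0.26 (adjusted p = 0.503 and 0.623) and Hist1h1c by -0.56 and -0.81 (adjusted p = 0.164 and 0.0395). None of these 3 passed the call with all arrays, and Hist1h1c passed it after MGCD0103 without the first control array. The germ-line H2A gene Hist1h2aa differed by 0.06 after T247 (adjusted p = 0.854) and by 0.68 after MGCD0103 (adjusted p = 0.0132), and Hist1h2ba by -0.12 and 0.26 (adjusted p = 0.63 and 0.259).

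**Figure D4:**
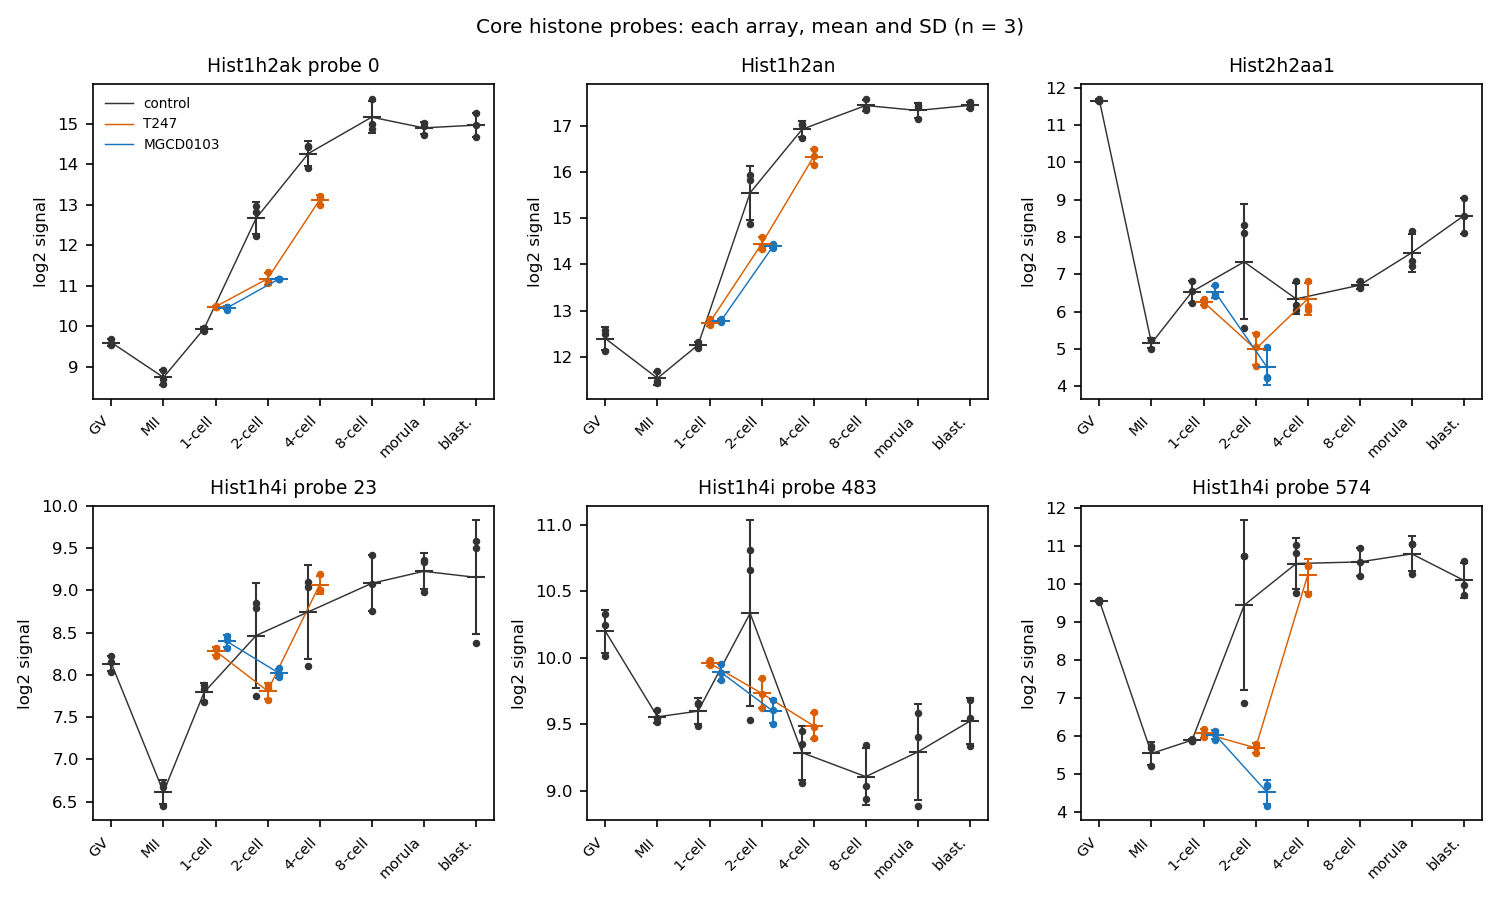
Log2 signal on each array for 3 H2A probes (Hist1h2ak probe 0, Hist1h2an, Hist2h2aa1) and 3 probes of Hist1h4i, by stage and treatment, with the mean and SD of 3 arrays. At the 2-cell stage the treated arrays of Hist1h2an lie between 14.33 and 14.60 below all controls, and for Hist1h4i probe 574 the first control array (6.86) lies far below the other two (10.73).

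At the 4-cell stage, measured for T247 alone, 4 of 50 members were higher and 6 lower, where 17.2% of all probes were called, 12% higher and 5.25% lower. The split was 3 to 2 with quantile normalization. The member median was -0.20 against 0.03 over all probes. H4 had 4 lower calls and 1 higher, H2B 1 lower and 2 higher, H2A 1 lower, H3 1 higher and H1 none.

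Hist4h4 probe 212, which reads an H4 gene outside the main clusters, was at 13.44, 13.33 and 12.97 in controls and at 11.57, 11.49 and 11.53 after T247 (-1.71 ± 0.25, adjusted p = 4.19e-06). It had been lower at the 2-cell stage too, with 11.94, 12.54 and 12.45 in controls and 10.94, 11.06 and 10.98 after T247 (-1.32 ± 0.25, adjusted p = 9e-05). Hist1h2ak probe 0 read 14.45, 14.41 and 13.91 in controls and 13.21, 12.98 and 13.16 after T247 (-1.14 ± 0.18, adjusted p = 1.2e-05). Hist1h4k probe 36, an H4 probe close in sequence to those of Hist1h4c and Hist1h4d, fell by 1.12 on the log2 scale (adjusted p = 0.00427).

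Of the 6 H2A probes ending at the stop codon, none was called at the 4-cell stage after T247. Their differences ran from -0.59 to -0.35, and 5 of the 6 had no overlap with their controls, the exception being Hist2h2aa2 (22.3% of all probes lay wholly below control). Hist1h2an read 16.34, 16.16 and 16.50 after T247 against 17.01, 17.04 and 16.73.

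The rises after T247 at the 4-cell stage were led by Hist1h2bc, at 7.44, 6.92 and 6.80 in controls and 9.07, 9.35 and 8.67 after T247 (1.98 ± 0.41, adjusted p = 0.000343). The H2B gene Hist2h2bb read 9.24, 9.26 and 8.69 in controls and 10.36, 10.51 and 10.38 after T247 (1.36 ± 0.32, adjusted p = 0.00139). Hist1h4h read 4.64, 4.79 and 4.63 in controls and 6.08, 5.83 and 5.98 after T247 (1.27 ± 0.20, adjusted p = 8.79e-06). With all arrays in the fit Hist1h4h was thus called higher in the 5 inhibitor comparisons, with no overlap of arrays in any.

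Linker histones were not called at the 4-cell stage. Hist1h1a stood at 0.76 ± 0.18 (adjusted p = 0.00124), with 10.84, 10.70 and 10.93 after T247 against a highest control of 10.22. Hist1h1b, Hist1h1c, Hist1h1e and Hist1h1t differed by -0.46, -0.52, 0.06 and 0.25 (adjusted p = 0.363, 0.207, 0.878 and 0.555). Of the germ-line core genes, Hist1h2aa stood at 0.67 (adjusted p = 0.0162) and Hist1h2ba at 0.38 (adjusted p = 0.0901).

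T247 and MGCD0103 were given at the same dose and time and were also compared with each other. Their arrays lay on different slides, so inhibitor and slide cannot be told apart here either. At the 1-cell stage 0 of 49 members were called (background 0.25% of all probes, 0.0534% higher and 0.196% lower, limma) and 0 had an unadjusted p under 0.05. The 95% interval of the difference lay within 1 log2 unit of 0 for 37 members and reached past it for 12. For Hist1h2an it was -0.32 to 0.40, for Hist1h1t -0.55 to 0.66 and for Hist1h1b -1.18 to 0.36.

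At the 2-cell stage 0 of 51 members were called (background 5.59%, 3.17% higher and 2.43% lower, limma), 12 had an unadjusted p under 0.05, and 5 had an adjusted p under 0.05 with a difference under 2-fold. The intervals lay within 1 log2 unit of 0 for 30 members and reached past it for 21. The 5 were Hist1h1a (MGCD0103 higher by 0.53, 95% interval 0.16 to 0.89), Hist1h1t (0.90, 0.30 to 1.51), Hist1h2aa (0.62, 0.17 to 1.06), Hist1h3f (0.64, 0.20 to 1.09) and Hist1h3d. Of the H2A probes called lower with both, the interval ran from -0.38 to 0.37 for Hist1h2ak probe 0 and from -0.41 to 0.31 for Hist1h2an, but from -1.36 to 0.39 for Hist2h2aa1, and Hist3h2a was not well above background on any treated array. Hist1h4i probe 574 differed by -1.17 (-2.30 to -0.04, adjusted p = 0.139) and Hist1h1e by 0.44 (-0.06 to 0.94, adjusted p = 0.217).

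The change of an inhibitor's difference between stages was tested as an interaction. Between 1-cell and 2-cell embryos 17 of 49 members moved lower and 0 higher for T247 (background 15.9%, 12.7% lower and 3.27% higher), and 17 of 48 lower and 0 higher for MGCD0103 (17.5%, 12.8% lower and 4.61% higher). H2A gave 10 of the 17 with each inhibitor, of 13 tested, with medians of -1.43 and -1.55, and all 6 probes ending at the stop codon were among them. Hist1h2ak probe 0 moved by -2.04 ± 0.25 (adjusted p = 4.6e-07) with T247 and -2.01 ± 0.25 (adjusted p = 4.01e-07) with MGCD0103. Hist1h1c was the single linker histone among them, at -1.40 with each (adjusted p = 0.0205 and 0.0207).

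Between 2-cell and 4-cell embryos the T247 difference moved higher for 8 of 49 members and lower for 1 (background 23.1%, 17.1% higher and 5.93% lower), and the split was 6 to 2 at the 75th percentile and with quantile normalization. Of the 8, 5 were stem-loop probes of 7 tested and 3 were late probes, and no body probe was called. Hist1h3g moved by 3.05 ± 0.43 (adjusted p = 3.35e-06): its 2-cell arrays lay below control and its 4-cell arrays read 8.11, 8.36 and 7.42 against 6.98, 7.25 and 6.31. Hist1h2ab was the single probe that moved lower (-1.27 ± 0.49, adjusted p = 0.0477).

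Genes that act on these messengers were read from lists of transcription, processing and decay factors. Of 28 gene names, some of them second names of a listed gene, 24 were on the array, with 34 probes. At the 1-cell stage 0 probes were called with either inhibitor. At the 2-cell stage 7 of 34 were lower and 0 higher after T247 (median -0.57 against -0.21 over all probes), where 13.6% of all probes were called lower and 9.04% higher. After MGCD0103 8 of 34 were lower and 5 higher, against 13.2% and 11.8%, and at the 4-cell stage T247 gave 5 of 34 lower and 0 higher, against 5.25% and 12%. Hinfp, the transcription factor of H4 genes, read 8.84, 11.89 and 11.64 in 2-cell controls, 8.44, 8.44 and 8.20 after T247 and 8.11, 8.14 and 8.15 after MGCD0103 (-2.43 ± 0.39, adjusted p = 6.81e-06, and -2.66 ± 0.39, adjusted p = 1.76e-06). As for Hist1h4i probe 574, its first control array was low. Coil, the scaffold of Cajal bodies, read 10.66, 10.91 and 11.05 in 2-cell controls and 7.42, 7.71 and 7.70 after MGCD0103 (-3.26 ± 0.19, adjusted p = 3.98e-14), with 8.91, 8.61 and 8.50 after T247.

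Histone variants listed as replication-independent, which in the main are made also outside S phase from messengers with poly(A) tails, gave a comparison within the same embryos. Which form of messenger each listed gene makes, H2afx included, was not measured here. Of 18 genes, 15 were on the array with 23 probes, of which 0 were called with either inhibitor in 1-cell embryos, 7 lower and 0 higher after T247 and 5 lower and 1 higher after MGCD0103 in 2-cell embryos, and 1 lower and 1 higher after T247 in 4-cell embryos. In 2-cell embryos 22 of the probes were tested, and 13.6% of all probes were called lower after T247 and 13.2% after MGCD0103. The DNA-damage variant H2afx differed by -1.72 ± 0.29 (adjusted p = 1.69e-05) and the H3.3 gene H3f3a by -1.25 ± 0.17 (adjusted p = 9.11e-07) after T247 at the 2-cell stage. H2afz, the H2A.Z gene, differed by -1.51 ± 0.14 after MGCD0103 (adjusted p = 6.52e-10). The first 2-cell control array was the lowest control for each of these genes. It read 10.10 against 12.19 and 12.07 for H2afx, and 12.55 against 13.37 and 13.20 for H3f3a. For H2afz it read 15.14 against 16.04 and 15.91. Over development the oocyte linker histone H1foo fell by 4.72 on the log2 scale between 2-cell and 4-cell embryos (adjusted p = 5.72e-21). In that step the listed linker gene H1f0 fell by 2.86. Of the member linker histones, Hist1h1b, Hist1h1e and Hist1h1t were called higher there, Hist1h1a lower and Hist1h1c neither.

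RefSeq promoters (GRCm38.p6), 250 bases before to 50 after the start, were matched for 43 promoters of 42 member genes, and 4 motifs were searched on both strands. The octamer ATTTGCAT was in 13 of 43 (30.2%, against 1.74% of all 32851 promoters): 7 of 14 H2A and 6 of 10 H2B promoters, and none of H1, H3 or H4. TATAAA was in 26 (60.5% against 13.6%) and CCAAT in 37 (86.0% against 37.4%), though in 2 of 8 H4 promoters. AAACACA, the letters of the H1 box, was in 9 (20.9% against 7.18%), among them 5 of the 6 H1 promoters, the one without it being that of Hist1h1a. The promoters of Hist1h1a and Hist1h1b are shown because these genes ran on opposite courses, with the motifs in capitals on either strand, at chr13:23763508-23763667 (plus strand) and chr13:21780626-21780785 (minus strand).
Hist1h1a promoter: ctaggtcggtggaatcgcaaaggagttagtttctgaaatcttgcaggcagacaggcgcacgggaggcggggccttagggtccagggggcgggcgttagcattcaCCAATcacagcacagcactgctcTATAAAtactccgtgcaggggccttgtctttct
Hist1h1b promoter: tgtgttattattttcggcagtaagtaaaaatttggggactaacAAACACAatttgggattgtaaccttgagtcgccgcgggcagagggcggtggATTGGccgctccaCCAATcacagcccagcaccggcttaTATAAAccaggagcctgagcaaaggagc
In Hist1h1b the H1 box begins 117 bases before the start, the 2 CCAAT motifs shown 53 and 66 bases before it and TATAAA 28 bases before it. In Hist1h1a CCAAT begins 56 and TATAAA 33 bases before the start. A match of letters is a description and no measurement of binding.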

How the data were processed

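Total RNA of 100 oocytes or embryos per sample was amplified, labelled with Cy3 and hybridised to 8 x 60K arrays of 60-base probes by the authors. The deposited files hold 1 array each, with processed and raw signal intensity and 0 or 1 marks per spot, a kind of score, from Agilent Feature Extraction (version 9.5.1.1 in the submitters' processing notes and 10.7.1.1 per the file headers). The deposited series matrix holds log2 values of the authors for 19143 probes, 39 of them members, and was used as an alternative. The methods kept detected spots, filled in missing values, took the brightest probe of each gene, applied smooth quantile normalization and limma, and called 2-fold changes at an adjusted p under 0.05. Here no value was filled in and probes were kept apart. Control spots were left out, leaving 55681 probes. Spots marked as outliers (81 to 183 an array) were left out only where another spot of the same probe remained, and were kept otherwise.

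Log2 processed signals were smooth quantile normalized with the 13 conditions as groups (window 5%, own implementation), and fitted over all 39 arrays in limma 3.58.1 (R 4.3.3). There were 5 inhibitor, 2 direct and 7 stage comparisons and 3 interactions. Intervals are 95% intervals from the fit. Folds against a group not well above background on any array are lower bounds against the dimmest signal well above background on each array. Simulated arrays were drawn around the 1-cell control means with independent noise, and changes were planted in the T247 2-cell group in brighter probes only. Of 43431 probes, 188 of 200 changed ones (94%) and 13 unchanged ones were called. The simulation held no slide difference and no deviating control array, so its rate does not carry over to the real 2-cell comparisons. Between 62.4% and 77.3% of spots per array were detected, which, with 3 arrays a group, limits the precision. Per the methods the 3 samples were independent. The highest correlation between 2 arrays was 0.992 and no arrays were identical.

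The members and lists were chosen with earlier results of these data known. Named are all H1 and the germ-line genes, the called probes or the steepest whose arrays did not overlap in each comparison (3 each way for inhibitors, 2 for stages), probes of 1 gene that disagree in sign, and the 2 list genes with the widest change, as far as room allowed; other names were chosen after their values were seen. Same-numbered control arrays share a slide. Their deviations correlated above 0.1 in all 3 pairs only between the 8-cell and 4-cell stages (0.184, 0.15 and 0.119), and the numbers were not taken as pairs. Gene names of 52 probes matched RefSeq. Alternatives covered scaling, background correction, filters, probe choice, arrays in the fit, slide, replicate block and left-out arrays.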

Additional observations from a re-analysis of the deposited data

Results flagged for a closer look

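The difference between treated and control embryos changed between stages for members tested by an interaction. It moved for 17 probes between the 1-cell and 2-cell stages with T247 and for 17 with MGCD0103, all of them lower, and for 9 with T247 between the 2-cell and 4-cell stages, of which 8 were higher. Both sets rest on the 2-cell controls, whose first array was lower than the other two for most members, and the part of that array in the interactions was not tested.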

How the results depend on the processing

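Leaving out 1 array at a time gave 1 to 3 called members for T247 and 1 to 2 for MGCD0103 in 1-cell embryos, 8 to 23 and 8 to 22 in 2-cell embryos, 9 to 10 for T247 in 4-cell embryos, and 0 to 0 and 0 to 1 between the inhibitors in 1-cell and 2-cell embryos. By stage it gave 16 to 17 (MII against GV), 8 to 11 (1-cell), 21 to 31 (2-cell), 27 to 32 (4-cell), 4 to 9 (8-cell), 9 to 12 (morula) and 4 to 8 (blastocyst). The counts moved by over 1.5 times without replicate 3 of the T247 or the MGCD0103 1-cell arrays (1 each), 2-cell control replicate 1 (23 for T247), 2 or 3 (8 and 11 for MGCD0103), replicate 1 of the T247 or 3 of the MGCD0103 2-cell arrays (1 each, between inhibitors) and blastocyst replicate 2 (8). With quantile normalization the counts were 1 and 1 for T247 and MGCD0103 in 1-cell embryos, 5 for T247 in 4-cell embryos, 16 for the 4-cell and 2 for the blastocyst step. With normexp they were 1 and 1 in 1-cell embryos, 10 for MGCD0103 in 2-cell embryos, 6, 2 and 1 for the 1-cell, 8-cell and blastocyst steps. Series matrix values gave 1 and 1 at the 1-cell stage, 2 for the 8-cell and 4 for the morula step. With only the arrays compared in the fit, 5 and 8 were called for T247 and MGCD0103 in 2-cell embryos, 2 between the inhibitors there, and 3 and 3 for the 8-cell and blastocyst steps. Scaling to the 75th percentile gave 7 for the 1-cell and 3 for the blastocyst step and 10 for the T247 interaction of the 1-cell and 2-cell stages. The cause was not tested. Of the other settings, 182 of 205 counts stayed within 1.5 times. For single probes 1633 of 1716 values kept their call, 54 lost it, 29 gained it and 0 reversed.

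With the replicate number as a block, the same counts were called as without it in each of the 14 comparisons (11 and 18 for T247 and MGCD0103 in 2-cell embryos), and with slide as a random block (correlation 0.0903) 10 were called for T247 there. Centring on the median of all probes was chosen after seeing the data.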

Other observations

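Histone chaperones and modifiers of free histones, 23 of 24 genes with 48 probes, had 3 probes higher and 0 lower of 46 tested at the 1-cell stage with each inhibitor, near the 6.79% and 4.02% of all probes called higher after T247 and MGCD0103. Anp32b, an acidic nuclear histone-binding protein, stood at 2.37 ± 0.28 after T247 (adjusted p = 4.42e-07) and at 2.12 after MGCD0103, and Hat1, which acetylates new H4, at 1.64 ± 0.23 and 1.45. At the 2-cell stage 15 probes were lower and 3 higher after T247 and 6 lower and 5 higher after MGCD0103, where 13.6% and 13.2% of all probes were called lower and 9.04% and 11.8% higher. Hira, the chaperone of H3.3, differed there by -2.55 ± 0.38 and -4.20 ± 0.38 and Set by -2.46 ± 0.26 and -3.30 ± 0.26. The first 2-cell control array was the lowest control for both. It read 6.98 against 8.49 and 8.49 for Hira and 12.01 against 13.79 and 13.82 for Set.

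Among 2-cell markers, 4 of 6 genes were on the array, and their summed signal was 62860 to 72180 in 2-cell controls, 58610 to 61130 after T247 and 50520 to 57250 after MGCD0103, against at most 10740 on the arrays of other control stages.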
